A study of Mus musculus with 12 samples.

Results

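A set of 10 genes of amino acid transporters of the plasma membrane was followed through the 4 groups of regulatory T cell (Treg) libraries. They were chosen by name, with earlier results of these data known, and are 10 of the 41457 genes in each deposited gene table. A row was found for each of the 10 in all 12 libraries. In order of role they are Slc7a1, a carrier of the cationic amino acids arginine and lysine; Slc7a5 and Slc7a6, light chains that work only when joined to the heavy chain encoded by Slc3a2 (CD98); and Slc43a1, a carrier of branched-chain amino acids that needs no heavy chain. Slc1a4 and Slc1a5 exchange small neutral amino acids, the latter with a preference for glutamine, Slc38a1 and Slc38a2 take up neutral amino acids such as glutamine and alanine together with sodium, and Slc6a6 takes up taurine.

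T cells that meet their antigen grow before they divide, and for this they bring amino acids into the cell as material for protein, nucleotides and energy. The heterodimer of Slc7a5 and Slc3a2 brings in leucine and other large neutral amino acids in exchange for glutamine, so that it works in concert with the glutamine carriers. Amino acids inside the cell are sensed by the kinase complex mTORC1 at the lysosome, while a shortage of them raises the transcription factor ATF4, whose targets include several of these carriers.

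Treg of control mice (CD18wt) were compared with Treg in which the β2-integrin subunit CD18, encoded by Itgb2, had been deleted (CD18Foxp3). CD18Foxp3 mice carried floxed CD18 alleles (CD18fl/fl, the flanked part being an exon) and Cre under control of Foxp3, and the CD18wt controls were CD18wt/wt littermates with the same Foxp3Cre, so that Cre was present in both genotypes and acted only where Foxp3 was expressed. Both carried an RFP reporter on a C57BL/6 background, mice were matched for age and sex, and ages were not given for these libraries. RFP+CD4+ cells of the spleen were kept overnight in IL-2 at 5 U/ml (unstimulated) or in IL-2 with anti-CD3 at 1 µg/ml and anti-CD28 at 2 µg/ml (stimulated), which stand in for antigen and costimulation, and each of the 4 combinations had 3 libraries labelled as biological replicates. Levels are TPM, a scale of transcript abundance that has the same sum in every library. It is corrected for the annotated exon length of a gene, so that the order of levels between genes depends on that length. Fold changes come from read counts normalised for library composition and tested with edgeR's quasi-likelihood test. Their p-values were adjusted by Benjamini-Hochberg over all genes tested. A gene is said to have risen or fallen where its fold change was at least 1.5 and its adjusted p at most 0.01.

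The libraries held 10665174 to 19005482 exon reads. Itgb2 transcripts, counted over the whole gene and not over the flanked exon alone, were at 387 to 465 TPM in unstimulated and 329 to 331 TPM in stimulated CD18wt Treg, against 229 to 257 TPM and 131 to 202 TPM in CD18Foxp3 Treg. Foxp3 was at 73.4 to 207 TPM and Cd4 at 279 to 657 TPM over the 12 libraries, whereas the B cell gene Ms4a1, the myeloid genes Csf1r and Itgax, and Ncr1 and Cd8a each stayed under 1.5 TPM. Cd8b1 was at 12.45 to 30.4 TPM, and 2 further myeloid genes, Lyz2 and Cd68, were at 0 to 15.6 TPM and 2.35 to 10.3 TPM. Of 5 activation genes, 4 (Il2ra, Tnfrsf9, Irf4 and Myc) rose upon stimulation in CD18wt Treg and all 5, Nr4a1 included, in CD18Foxp3 Treg. The B cell gene Cd79b was at 21.5 to 29.2 TPM in unstimulated and 8.17 to 18.0 TPM in stimulated libraries, and the summed level of 6 cytotoxic lymphocyte markers, mostly Nkg7, was 75.2 to 139 TPM and 93.6 to 148 TPM. Those of 6 myeloid markers were 5.30 to 19.7 TPM and 5.91 to 10.7 TPM, and those of 6 erythroid markers 1.83 to 58.1 TPM and 0.234 to 4.04 TPM. The summed level of 5 plasma cell markers, mostly Xbp1, was higher in stimulated (145 to 204 TPM) than in unstimulated libraries (69.8 to 88.5 TPM), and 2 of 4 and 3 of 3 tested rose in CD18wt and CD18Foxp3 Treg, while Jchain did not exceed 4.76 TPM and was at or below 0.722 TPM in stimulated libraries. The part of such cells in the responses below was not tested. A pair of libraries stood apart from the other replicates of their group. In CD18wt unstimulated replicate 3, which also had the fewest reads, counts differed from those of the other 2 by a chi-square per gene of 39.8 and 41.3, against 11.96 between those 2. CD18Foxp3 stimulated replicate 1 differed by 58.9 and 64.3, against 11.9, and results are given without these libraries where they matter. The stimulated CD18wt replicates differed from one another by 22.7, 26.4 and 38.6, so that no close pair was found in that group.

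On the GRCm38 assembly the genes lie on 8 chromosomes, with Slc7a5 and Slc7a6 apart on chromosome 8 and Slc38a1 and Slc38a2 close together on chromosome 15 (96571418 to 96642913 and 96687392 to 96699730, both on the minus strand). Nearly all of their exon reads, 99.997% or more in each case, were placed uniquely. Slc7a5 (chromosome 8, 121881150 to 121907694, minus strand) lies within the long gene model Gm20388 of the other strand, which held 623 to 1527 exon reads per library, and since the library kit did not mark strand the reads of the 2 cannot be told apart where they overlap. Promoter windows of 300 bases around the start site were at hand for 6 of the 10 genes (8 windows of RefSeq, build GRCm38.p6). They were searched on both strands for CACGTG, the E-box bound by Myc and related factors, and for TGATGNAA, the letters of the amino acid response element bound by ATF4 with its partners. The windows that held a motif are shown with that of Slc7a1, whose transcript rose most among the genes with a window, and capitals mark the motif.
Slc43a1 (chr2:84840073-84840372, plus strand): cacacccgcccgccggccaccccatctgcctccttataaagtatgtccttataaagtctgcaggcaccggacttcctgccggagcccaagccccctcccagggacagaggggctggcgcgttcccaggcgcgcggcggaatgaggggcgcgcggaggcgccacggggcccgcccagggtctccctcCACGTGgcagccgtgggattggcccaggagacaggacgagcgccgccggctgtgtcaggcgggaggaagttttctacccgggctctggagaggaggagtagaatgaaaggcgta
Slc1a4 (chr11:20332664-20332963, minus strand, with the element on the opposite strand): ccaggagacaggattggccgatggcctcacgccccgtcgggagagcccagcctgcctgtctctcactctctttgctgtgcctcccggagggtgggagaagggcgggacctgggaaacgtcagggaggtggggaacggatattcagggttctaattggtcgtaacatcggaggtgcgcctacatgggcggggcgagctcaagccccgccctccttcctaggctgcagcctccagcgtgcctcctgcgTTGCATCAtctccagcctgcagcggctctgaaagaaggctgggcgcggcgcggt
Slc7a1 (chr5:148399855-148400154, minus strand): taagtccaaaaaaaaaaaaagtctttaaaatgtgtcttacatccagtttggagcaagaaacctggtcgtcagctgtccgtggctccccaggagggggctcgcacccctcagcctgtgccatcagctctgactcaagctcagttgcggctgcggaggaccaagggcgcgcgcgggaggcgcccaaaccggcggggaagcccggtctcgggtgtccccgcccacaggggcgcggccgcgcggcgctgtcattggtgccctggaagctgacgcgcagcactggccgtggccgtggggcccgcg
CACGTG stood in 1 of the 8 windows, that of Slc43a1 at position -64 from the start site, and in 7.15% of all 32851 windows of the same length. TGATGNAA stood in 1 of the 8, that of Slc1a4 at position -4, and in 3.97% of all windows. Slc43a1 and Slc1a4 are the 2 genes with the lowest levels of the 10, and by edgeR neither passed the threshold for stimulation in either genotype. In the windows of Slc7a1, Slc7a6, Slc38a2 and Slc3a2 these letters were not found, which says nothing about binding by either factor elsewhere.

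Stimulation raised 7 of the 10 transporter transcripts in CD18wt Treg and the same number in CD18Foxp3 Treg, and lowered none (edgeR). Of all genes tested, 18.7% were called higher and 14.9% lower in CD18wt Treg, and 20.9% and 17.6% in CD18Foxp3 Treg. As the 10 were chosen with earlier results of these data known, these shares are set beside them as a description only. The genes that rose in each genotype were Slc7a5, Slc7a1, Slc6a6, Slc1a5, Slc7a6, Slc38a1 and Slc38a2, with Slc7a5 having the largest fold change in both. At an unadjusted p under 0.05 were 8 and 9 of the 10, against 55.2% and 61.4% of all genes. DESeq2 also called 7 higher and 0 lower in each genotype, against 19.2% and 22.1% of all genes higher. Together the 10 transcripts made up 326 ± 41.6 TPM in unstimulated and 984 ± 119.99 TPM in stimulated CD18wt Treg, and 322 ± 4.38 TPM and 882 ± 45.9 TPM in CD18Foxp3 Treg (mean ± SD, n = 3 each). A gain in a bulk culture can come from more cells of a kind or from more RNA per cell, which cannot be told apart here.

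**Figure D1:**
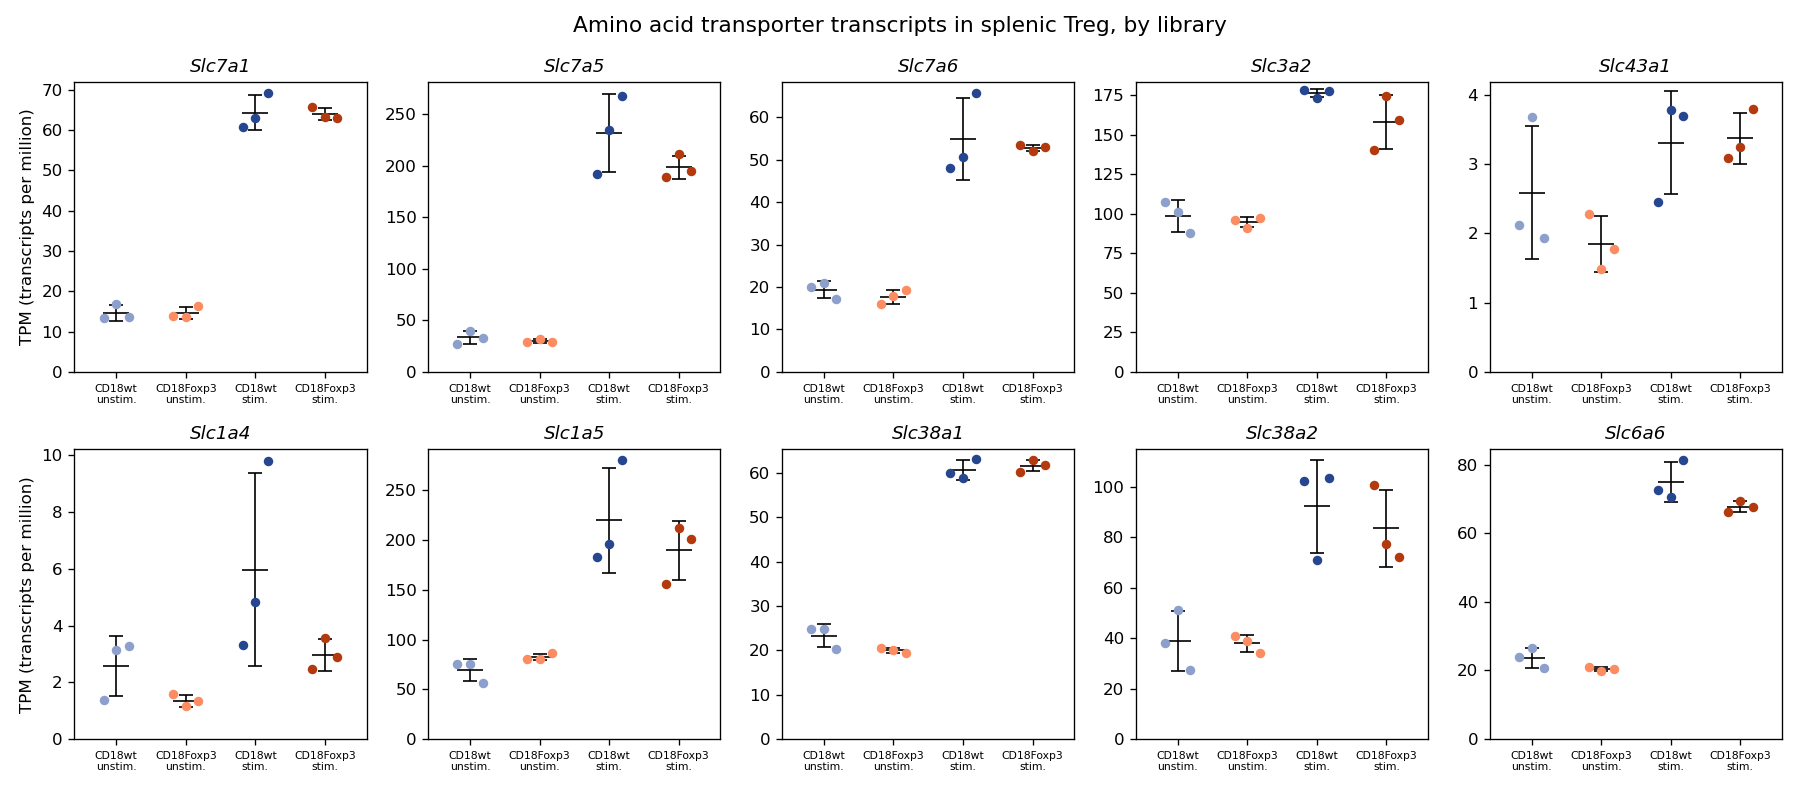
Level of each transporter transcript in the 12 libraries. The vertical axes give TPM from 0 on a separate scale for each gene, points are libraries, horizontal marks the mean and bars the SD of 3 libraries. For 8 of the 10 genes all 6 stimulated libraries lie above all 6 unstimulated ones, and the exceptions are Slc1a4 and Slc43a1.

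Slc7a1, the arginine and lysine carrier, went from 13.3, 16.9 and 13.6 TPM in the unstimulated CD18wt libraries to 60.9, 63.0 and 69.1 TPM in the stimulated ones. In CD18Foxp3 Treg it went from 13.9, 13.7 and 16.4 TPM to 65.8, 63.2 and 63.0 TPM. The groups of each genotype were far apart, and the 3 stimulated CD18Foxp3 libraries lay within the range of the CD18wt ones. The log2 fold change was 1.74 ± 0.14 (SE, adjusted p = 7.3e-07, edgeR) in CD18wt Treg and 1.76 ± 0.11 (adjusted p = 3.8e-06) in CD18Foxp3 Treg.

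Slc7a5, which encodes the light chain LAT1, had the largest response. It rose from 27.4, 39.9 and 32.8 TPM to 192, 235 and 267 TPM in CD18wt Treg, and from 28.9, 32.1 and 29.4 TPM to 189, 211 and 195 TPM in CD18Foxp3 Treg. The log2 fold change was 2.39 ± 0.17 (SE, adjusted p = 4.6e-07, edgeR) and 2.35 ± 0.11 (adjusted p = 1.3e-06). The second light chain, Slc7a6 (y+LAT2), which exchanges cationic for neutral amino acids, rose less. Its levels were 19.9, 21.0 and 17.2 TPM without and 48.0, 50.8 and 65.9 TPM with stimulation in CD18wt Treg, and 15.9, 18.0 and 19.2 TPM against 53.4, 52.0 and 53.2 TPM in CD18Foxp3 Treg. Its log2 fold change was 1.10 ± 0.14 (adjusted p = 4.2e-05) and 1.22 ± 0.11 (adjusted p = 2.7e-05).

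The common heavy chain Slc3a2 had the highest TPM of the 10 transcripts before stimulation and did not pass the threshold after it. Its libraries were at 107, 101 and 87.8 TPM and, stimulated, at 178, 173 and 177 TPM in CD18wt Treg. In CD18Foxp3 Treg they were at 96.0, 91.2 and 97.6 TPM and, stimulated, at 140.4, 174 and 159 TPM. The stimulated libraries thus lay above the unstimulated ones on the TPM scale, by a ratio of means of 1.79 and 1.66. On the scale of normalised counts the log2 fold change was 0.44 ± 0.12 (SE, adjusted p = 0.0094, a fold of 1.36) in CD18wt and 0.37 ± 0.11 (adjusted p = 0.015, a fold of 1.29) in CD18Foxp3 Treg. The call for Slc3a2 rested on the scale: it passed with library totals in place of composition factors in CD18wt Treg (0.63) and with limma on log2(TPM + 1) in both genotypes (0.83 and 0.72). These scales moved the median of all genes from 0.02 to 0.22 and 0.36 in CD18wt Treg and from 0.01 to 0.19 and 0.31 in CD18Foxp3 Treg. Genes called higher and lower numbered 2234 and 1779 in CD18wt Treg, 2849 and 1196 with library totals and 3589 and 858 with limma on log2(TPM + 1), and in CD18Foxp3 Treg 2516 and 2120, 3158 and 1588, and 3783 and 1201. Measured against the median gene, Slc3a2 lay higher by 0.41, 0.41 and 0.48 on the 3 scales in CD18wt Treg and by 0.35, 0.35 and 0.41 in CD18Foxp3 Treg.

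Since light and heavy chains are needed together, their transcripts were also set against each other within each library, where library scaling drops out. Slc7a5 amounted to 34.1 ± 7.57 TPM per 100 TPM of Slc3a2 in unstimulated CD18wt Treg and to 131 ± 21.7 after stimulation, and to 31.8 ± 2.97 and 126 ± 7.45 in CD18Foxp3 Treg (mean ± SD, n = 3). Unstimulated libraries ranged from 25.5 to 39.6 and stimulated ones from 108 to 151. The Slc7a5 transcript thus went from well below that of Slc3a2 to above it in TPM in all 6 stimulated libraries. The protein chains themselves were not measured here. The 3 against 3 libraries did not overlap in either genotype, with p = 0.1 in the exact two-sided permutation test, the smallest value it can give. Between the light chains, Slc7a5 was 1.72 ± 0.30 times Slc7a6 in unstimulated CD18wt Treg and 4.22 ± 0.35 times after stimulation, and 1.71 ± 0.16 and 3.75 ± 0.27 times in CD18Foxp3 Treg, again without overlap (p = 0.1, exact permutation test). Neither ratio was separated by genotype in either culture (p = 0.3 to 1, exact permutation test).

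**Figure D2:**
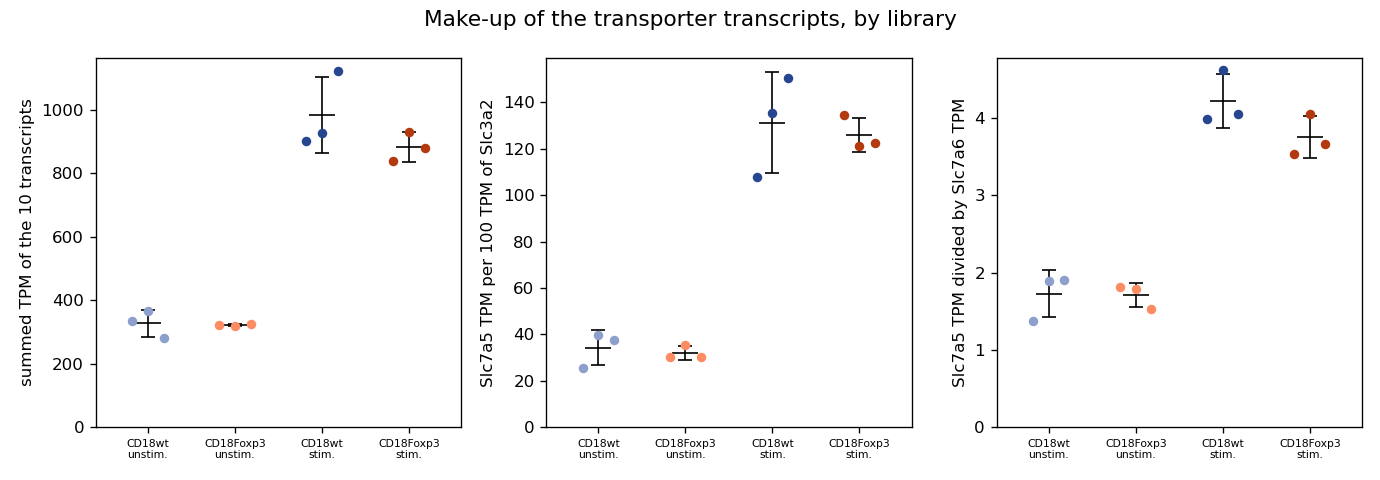
Summed level of the 10 transcripts (left, TPM), Slc7a5 per 100 TPM of Slc3a2 (middle) and Slc7a5 divided by Slc7a6 (right) in the 12 libraries. Points are libraries, horizontal marks the mean and bars the SD of 3 libraries. All 3 measures are higher in the 6 stimulated than in the 6 unstimulated libraries, the middle one at 108 to 151 against 25.5 to 39.6.

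Slc43a1, the carrier that needs no heavy chain, was close to the lower end of detection. It held 45 to 142 reads per library and was at 2.12, 3.69 and 1.94 TPM without and 2.45, 3.78 and 3.70 TPM with stimulation in CD18wt Treg, with overlapping groups. In CD18Foxp3 Treg it was at 2.28, 1.49 and 1.77 TPM against 3.09, 3.24 and 3.79 TPM, without overlap. The log2 fold changes of -0.03 ± 0.34 (SE, adjusted p = 0.95, edgeR) and 0.50 ± 0.25 (adjusted p = 0.12) did not pass, and the sign in CD18wt Treg turned to 0.15 with library totals.

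The glutamine exchanger Slc1a5 (ASCT2) had the second highest mean TPM of the transcripts in every group. It rose from 75.2, 75.8 and 56.8 TPM to 183, 196 and 280.3 TPM in CD18wt Treg, the low and the high value being those of replicate 3 in each culture. In CD18Foxp3 Treg it rose from 80.6, 80.7 and 86.1 TPM to 156, 213 and 201 TPM. The log2 fold change was 1.27 ± 0.16 (SE, adjusted p = 3.2e-05, edgeR) in CD18wt and 0.84 ± 0.12 (adjusted p = 3.6e-04) in CD18Foxp3 Treg. Its relative Slc1a4 (ASCT1), which carries alanine, serine and cysteine, was rare, at 1.37, 3.14 and 3.26 TPM against 3.30, 4.84 and 9.78 TPM in CD18wt Treg and at 1.57, 1.15 and 1.35 TPM against 2.45, 3.57 and 2.88 TPM in CD18Foxp3 Treg. With 26 to 198 reads per library and the largest errors of the 10 genes, its log2 fold changes of 0.80 ± 0.44 (adjusted p = 0.16) and 0.76 ± 0.31 (adjusted p = 0.060) did not pass. On the TPM scale its stimulated libraries lay above the unstimulated ones in each genotype, by a ratio of means of 2.31 and 2.19. In CD18Foxp3 Treg it passed with limma on log2(TPM + 1) (0.75) and on log2(TPM + 0.1) (1.07).

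The sodium-coupled carriers Slc38a1 (SNAT1) and Slc38a2 (SNAT2) both rose. Slc38a1 was at 24.7, 24.9 and 20.4 TPM without and at 60.0, 58.9 and 63.2 TPM with stimulation in CD18wt Treg, and at 20.5, 20.2 and 19.4 TPM against 60.3, 62.9 and 61.8 TPM in CD18Foxp3 Treg. Its log2 fold change was 0.98 ± 0.12 (SE, adjusted p = 3.1e-05, edgeR) and 1.26 ± 0.10 (adjusted p = 1.1e-05). Slc38a2, which cells are known to induce when amino acids are short, spread more. It was at 38.1, 51.2 and 27.2 TPM against 102, 71.0 and 104 TPM in CD18wt Treg, and at 40.9, 38.8 and 34.1 TPM against 101, 77.4 and 72.3 TPM in CD18Foxp3 Treg. Its log2 fold change was 0.85 ± 0.19 (adjusted p = 0.0024) and 0.78 ± 0.16 (adjusted p = 0.0026). This was the least stable of the 7 calls: it was lost in CD18wt Treg without unstimulated replicate 1 (0.82, adjusted p = 0.014), stimulated replicate 1 (0.77, adjusted p = 0.014) or stimulated replicate 3 (0.78, adjusted p = 0.012). In CD18Foxp3 Treg it was lost without unstimulated replicate 2 (0.80, adjusted p = 0.012) or 3 (0.69, adjusted p = 0.016) and, by size, without stimulated replicate 1 (0.58).

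Slc6a6, the taurine carrier, rose from 23.9, 26.6 and 20.6 TPM to 72.7, 70.7 and 81.5 TPM in CD18wt Treg and from 21.0, 19.7 and 20.5 TPM to 66.3, 69.4 and 67.7 TPM in CD18Foxp3 Treg. The groups did not overlap in either genotype. The log2 fold change was 1.26 ± 0.13 (SE, adjusted p = 4.6e-06, edgeR) and 1.37 ± 0.10 (adjusted p = 7.0e-06).

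**Figure D3:**
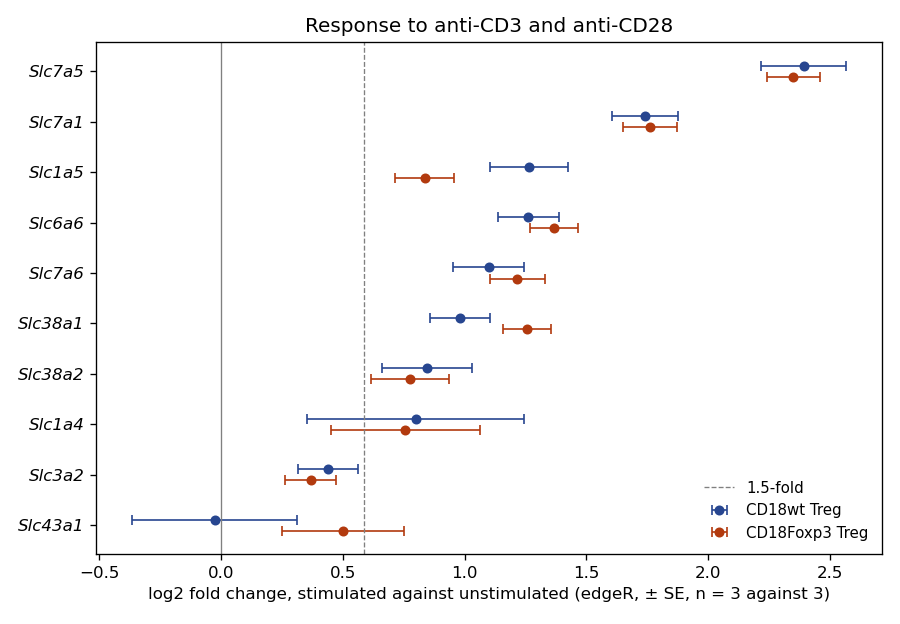
Log2 fold change of the 10 transcripts upon stimulation (horizontal axis, edgeR, bars show the SE, 3 against 3 libraries) in CD18wt Treg (blue) and CD18Foxp3 Treg (red), ordered by the value in CD18wt Treg. The dashed line marks 1.5-fold. Slc7a5 is highest at 2.39 and 2.35, and Slc3a2 lies left of the line in both genotypes at 0.44 and 0.37.

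Over the 10 genes the median log2 fold change was 1.04 in CD18wt and 1.03 in CD18Foxp3 Treg, against 0.02 and 0.01 over all genes tested. On the TPM scale 9 and 10 of the 10 genes had stimulated libraries above all unstimulated ones of their genotype, but so large a part of the transcriptome moved that 62% and 67.1% of all genes tested had groups without overlap in one direction or the other. The responses also changed the order of the levels on the TPM scale. That order rests on the annotated exon lengths: Slc38a1 had the longest (17236 bases) and also the most exon reads of the 10 genes (47114 over the 12 libraries). Before stimulation the order in CD18wt Treg was Slc3a2 (98.7 TPM), Slc1a5 (69.2), Slc38a2 (38.8), Slc7a5 (33.4), Slc6a6 (23.7), Slc38a1 (23.3), Slc7a6 (19.4), Slc7a1 (14.6) and, at 2.59 and 2.58 TPM, Slc1a4 and Slc43a1. Libraries of neighbours overlapped for Slc38a2 and Slc7a5, for Slc6a6, Slc38a1 and Slc7a6, and for Slc1a4 and Slc43a1. After stimulation Slc7a5 was first (231 TPM) with Slc1a5 overlapping it (219.9), and Slc3a2 came next (176). In CD18Foxp3 Treg the first 3 were the same in each culture, and after stimulation Slc7a5 (198 TPM), Slc1a5 (190.0) and Slc3a2 (158) overlapped one with the next.

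Loss of CD18 was not accompanied by a change of any of the 10 transcripts past the threshold, in either culture. By edgeR 0 of 10 were called in unstimulated Treg, where 0.135% of all genes tested (16 of 11829) were, and 0 of 10 in stimulated Treg, where 0% (0 of 11930) were. The deleted gene Itgb2 was itself called lower in unstimulated Treg (log2 fold change -0.85) but was not called in stimulated Treg (-0.94). The threshold thus missed the deleted gene there, and 0 of 10 in that culture says little. At an unadjusted p under 0.05 were 4 of the 10 in unstimulated and 1 in stimulated Treg, against 9.59% (1134) and 4.89% (583) of all genes. The part of the 10 in unstimulated Treg was thus above that of all genes. DESeq2 called 0 of the 10 in either, against 86 and 22 of all genes. The values below are given with their errors. These genotype comparisons use the same libraries as the stimulation comparisons.

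Slc1a4 had the largest difference between genotypes. In unstimulated Treg its CD18Foxp3 libraries held 44, 26 and 33 reads and the CD18wt ones 34, 83 and 52, and in stimulated Treg 61, 78 and 58 against 50, 109 and 198. The mean TPM was lower in CD18Foxp3 Treg in both cultures, but on that scale CD18wt replicate 1 lay within the CD18Foxp3 range in each culture. The log2 fold change of CD18Foxp3 against CD18wt was -0.95 ± 0.40 (SE, adjusted p = 0.48, edgeR) in unstimulated and -0.99 ± 0.38 (adjusted p = 0.93) in stimulated Treg, and without single libraries it ranged from -1.27 to -0.72 and from -1.27 to -0.51. Set against Slc1a5 of the same library, Slc1a4 was at 3.90 ± 1.98 and 1.65 ± 0.27 per 100 TPM in unstimulated CD18wt and CD18Foxp3 Treg, with overlap, and at 2.59 ± 0.85 and 1.56 ± 0.12 in stimulated Treg, without overlap (p = 0.1, exact permutation test, the smallest value it can give).

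For the other 9 genes the differences were small. In unstimulated Treg Slc1a5 was higher in CD18Foxp3 (80.6 to 86.1 TPM) than in CD18wt libraries (56.8 to 75.8 TPM), with a log2 fold change of 0.23 ± 0.10 (SE, adjusted p = 0.47, edgeR), and it was the only one of the 10 whose libraries did not overlap in that culture, as was so for 15.6% of all genes tested. Slc38a1 (-0.24 ± 0.09, adjusted p = 0.35) and Slc6a6 (-0.24 ± 0.09, adjusted p = 0.42) were lower in mean with overlapping libraries. In stimulated Treg the only gene without overlap was Slc6a6, at 66.3 to 69.4 TPM in CD18Foxp3 against 70.7 to 81.5 TPM in CD18wt libraries (-0.13 ± 0.14, adjusted p = 0.998), while 9.43% of all genes tested did not overlap. Slc7a5 was at 198 ± 11.4 TPM in stimulated CD18Foxp3 and 231 ± 37.7 TPM in stimulated CD18wt Treg, a log2 fold change of -0.21 ± 0.16 (adjusted p = 0.998), and Slc7a1, at 64.0 ± 1.53 and 64.3 ± 4.30 TPM, had one of 0.00 ± 0.14. The other differences lay between -0.51 and 0.03, that of -0.51 being the one for the rare Slc43a1 in unstimulated Treg (SE 0.31).

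**Figure D4:**
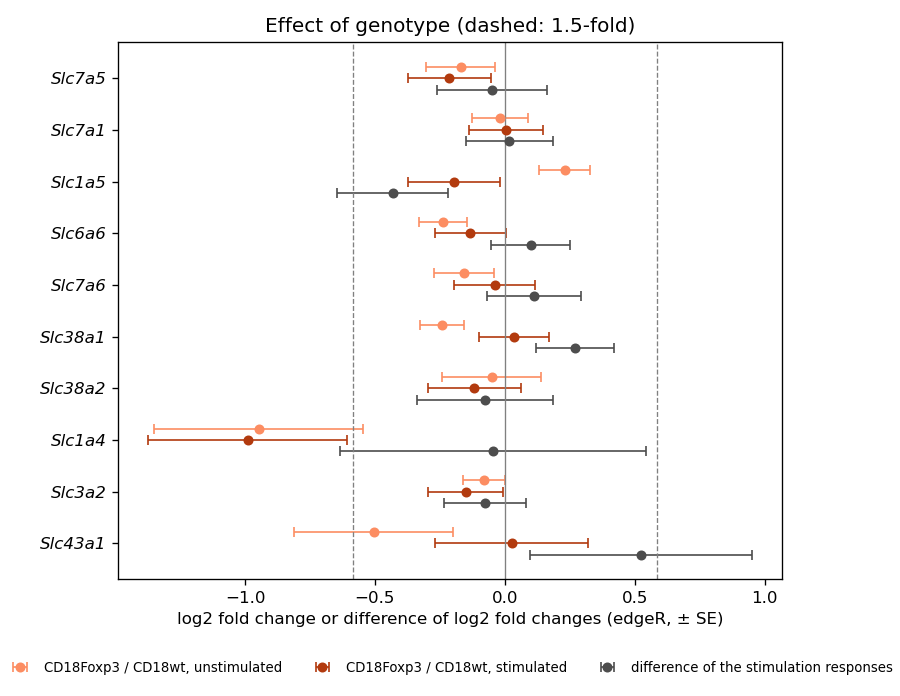
Log2 fold change of CD18Foxp3 against CD18wt in unstimulated (orange) and stimulated (red) Treg, and the difference between the stimulation responses of the genotypes (grey), for the 10 transcripts (horizontal axis, edgeR, bars show the SE). Dashed lines mark 1.5-fold. Slc1a4 lies left of the line in both cultures with the widest bars (-0.95 ± 0.40 and -0.99 ± 0.38), and the values of the other 9 genes lie between the lines.

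Whether stimulation acted differently in the genotypes was tested by the interaction term in all 12 libraries. By edgeR 0 of the 10 were called, as were 0% of all genes tested, with 0 of the 10 and 485 of all 12636 genes at an unadjusted p under 0.05, and DESeq2 called 0 of the 10 and 1 of all genes. The difference between the log2 fold changes, CD18Foxp3 minus CD18wt, was -0.43 ± 0.21 (SE, adjusted p = 0.987) for Slc1a5, 0.27 ± 0.15 (adjusted p = 0.987) for Slc38a1 and 0.52 ± 0.43 (adjusted p = 0.987) for the rare Slc43a1. Those of Slc7a5 (-0.05 ± 0.21) and Slc7a1 (0.02 ± 0.17) were near 0.

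The tables also count reads within introns, which give a second reading of each gene. Unspliced RNA and kept introns are known sources of such reads, but how reads that span an exon and an intron were counted is not given in the sources used here, and for Slc7a5 reads of Gm20388 cannot be told apart. Set against the exon reads of the same gene and library, intron reads of the carriers moved in opposite directions upon stimulation. In Slc1a5 they went from 3.91 ± 1.21 to 10.1 ± 2.38 per 100 exon reads in CD18wt Treg and from 4.48 ± 0.85 to 11.7 ± 1.78 in CD18Foxp3 Treg (mean ± SD, n = 3). In Slc38a1 they went from 7.67 ± 1.28 to 2.18 ± 0.44 and from 7.58 ± 0.32 to 2.36 ± 0.73, and in Slc38a2 from 5.26 ± 2.62 to 1.29 ± 0.33 and from 8.34 ± 1.53 to 0.943 ± 0.177. For these 3 genes the groups did not overlap in either genotype (p = 0.1 each, exact permutation test, the smallest value it can give). Among the 10 genes, 2 lay above and 2 below without overlap in CD18wt Treg, and 2 above and 4 below in CD18Foxp3 Treg. Of all genes with enough intron reads and with exon reads in every library, 20.7% lay above and 5.7% below in CD18wt Treg, and 32.4% and 12.7% in CD18Foxp3 Treg. Of the 10 transporters, 8 in CD18wt and 9 in CD18Foxp3 Treg had enough intron reads for these shares. All transporters without overlap were among them.

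For Slc38a2 the number of intron reads itself was lower after stimulation while that of exon reads was higher. The unstimulated CD18Foxp3 libraries held 259, 140 and 148 intron and 2580, 1978 and 1876 exon reads, and the stimulated ones 44, 35 and 37 intron and 5650, 3802 and 3273 exon reads. In CD18wt Treg intron reads went from 159, 182 and 23 to 47, 34 and 75, so that the groups overlapped through unstimulated replicate 3. The intron counts, normalised and tested in the same way, gave log2 fold changes of -2.76 ± 0.25 (SE, adjusted p = 5.5e-14, edgeR) in CD18Foxp3 and -1.57 ± 0.39 (adjusted p = 0.0098) in CD18wt Treg. Slc3a2 had a like pattern in CD18Foxp3 Treg, with 320, 310 and 283 intron reads before and 121, 119 and 113 after stimulation (-1.92 ± 0.20, adjusted p = 4.7e-12). In CD18wt Treg its intron reads were 404, 282 and 23 before and 69, 69 and 146 after (-1.63 ± 0.49, adjusted p = 0.034), and without unstimulated replicate 3 the gene passed at -2.08.

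Intron reads of Slc1a5 rose further than its exon reads, by a log2 fold change of 2.22 ± 0.30 (SE, adjusted p = 1.4e-04, edgeR) in CD18wt and 1.85 ± 0.19 (adjusted p = 6.4e-12) in CD18Foxp3 Treg. Those of Slc7a5 rose as well, from 0 to 8 reads per unstimulated library to 18 to 53 per stimulated one (3.68 ± 0.82, adjusted p = 0.0051, and 2.72 ± 0.62, adjusted p = 3.1e-04). Slc7a6 rose in CD18Foxp3 Treg (1.48 ± 0.25, adjusted p = 2.2e-06), and Slc38a1 fell in both genotypes, by 1.20 on the log2 scale in CD18wt and by 0.79 in CD18Foxp3 Treg. In all, 2 of 8 transporters tested were called higher and 2 lower by intron reads in CD18wt Treg, where 2.71% of all genes were called higher and 5.09% lower. In CD18Foxp3 Treg 3 of 9 were called higher and 3 lower, where 15% and 15.4% of all genes were. Slc1a4 had too few intron reads to be tested in either genotype, and Slc43a1 in CD18wt Treg. CD18wt unstimulated replicate 3 had 3.44 intron reads per 100 exon reads over all genes, against 5.06 and 5.28 in the other 2 of its group, and the CD18wt counts changed with it and with the scaling: without it 1060 genes were called in place of 740, and with the library sizes of the exon reads 196. In that last setting, with upper-quartile scaling or library totals, and in every fit that left out a single one of the other 5 CD18wt libraries, neither Slc38a1 nor Slc38a2 was called in CD18wt Treg. With the replicate number as a block, the calls of Slc38a1 (-1.22), Slc38a2 (-1.45) and Slc7a5 (3.74) in CD18wt Treg were lost as well. The call of Slc7a5 there was also lost with exon library sizes and without unstimulated replicate 1 or any of the stimulated replicates (3.43 to 3.95), and Slc7a6 was called without unstimulated replicate 3 (1.72). In CD18Foxp3 Treg the call of Slc38a1 was lost with upper-quartile scaling (-0.58), library totals (-0.38) and exon library sizes (-0.43) and without stimulated replicate 1 (-0.66), and those of Slc38a2 and Slc3a2 were kept in each of these fits.

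**Figure D5:**
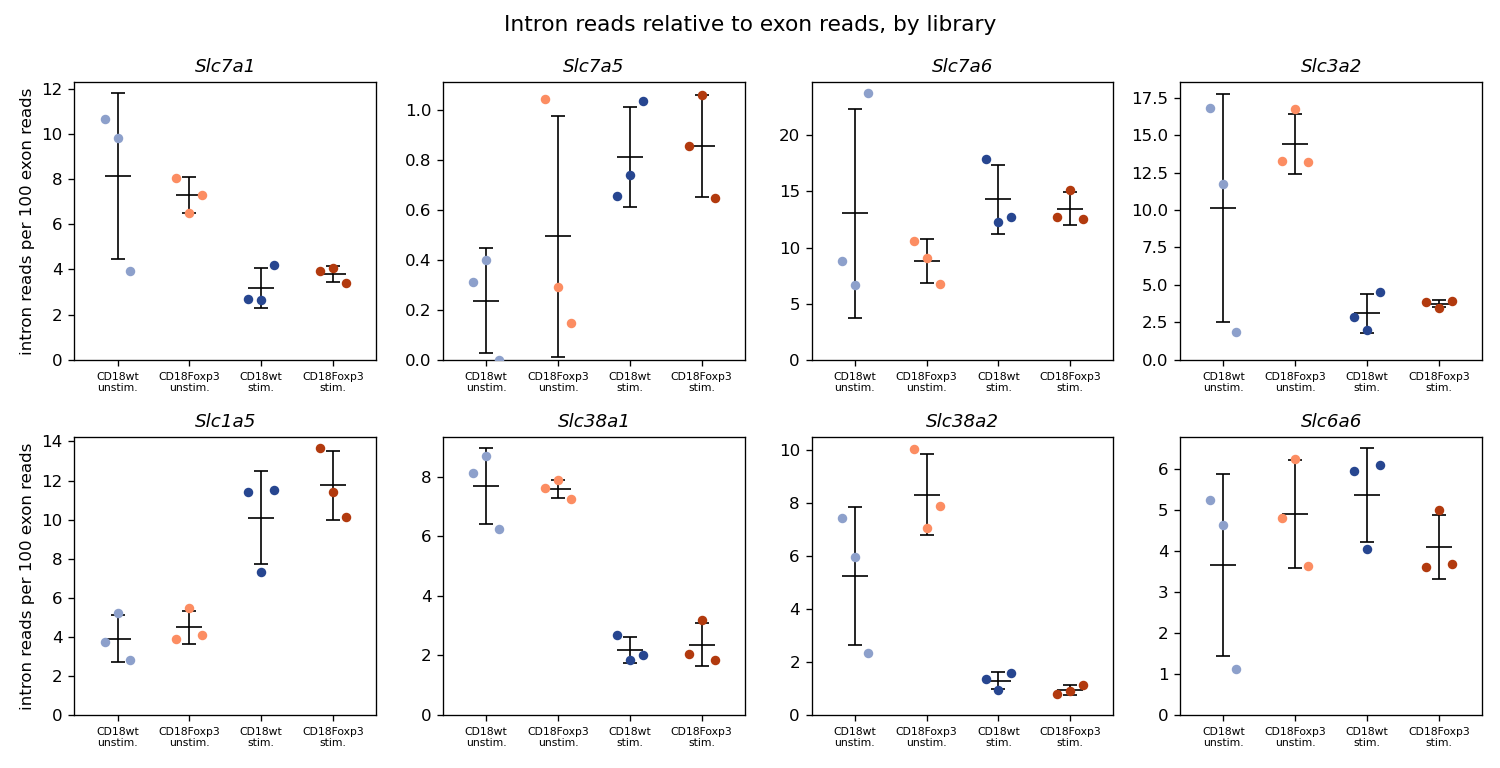
Intron reads per 100 exon reads of the same gene (vertical axes from 0, a separate scale for each gene) in the 12 libraries for the 8 transporters with at least 320 exon reads in each library. Points are libraries, horizontal marks the mean and bars the SD of 3 libraries. In Slc38a1 and Slc38a2 all stimulated libraries lie below all unstimulated ones and in Slc1a5 all lie above. The third point of unstimulated CD18wt Treg stands apart in Slc3a2, Slc7a6, Slc6a6, Slc7a1 and Slc38a2.

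Of 36 further plasma membrane carriers, 27 were under 1 TPM in every library and 9 had enough reads to be tested in CD18wt Treg, of which 1 rose and 2 fell, and in CD18Foxp3 Treg 2 rose and 2 fell of 7 tested. With so few tested, these counts are not far from the shares of all genes. Those were 18.7% higher and 14.9% lower in CD18wt Treg, and 20.9% and 17.6% in CD18Foxp3 Treg. The glycine carrier Slc6a9 rose by 3.12 ± 0.65 (log2 fold change ± SE, adjusted p = 0.0014, edgeR) from 0.153 to 0.335 TPM to 1.26 to 5.43 TPM in CD18wt Treg, and by 2.89 ± 0.58 in CD18Foxp3 Treg, where Slc16a10 was the other that rose (1.67 ± 0.23). The call of Slc6a9 was lost in CD18wt Treg without stimulated replicate 3 (2.34, adjusted p = 0.022) and in CD18Foxp3 Treg without unstimulated replicate 1 or 3 (2.47 and 2.93, adjusted p = 0.012 each) and with uniquely placed reads (2.44), and the gene did not enter the test where 10 reads were asked of every library. Slc7a10, a light chain for small neutral amino acids, fell by 2.31 on the log2 scale in CD18wt Treg, from 7.54 to 14.0 TPM to 2.11 to 3.93 TPM, and by 1.80 in CD18Foxp3 Treg. Slc43a2, a relative of Slc43a1 with the same kind of cargo, fell from 18.7 ± 0.59 to 11.4 ± 2.47 TPM in CD18wt Treg (-1.11 ± 0.16, adjusted p = 8.3e-05) and from 18.1 ± 1.93 to 11.3 ± 2.46 TPM in CD18Foxp3 Treg (-1.05 ± 0.16, adjusted p = 4.4e-04). Slc7a11, the light chain that takes up cystine, and Slc7a8, another partner of Slc3a2, did not exceed 0.113 and 0.156 TPM in any library, and Slc7a7, which like Slc7a6 exchanges cationic for neutral amino acids, did not exceed 1.67 TPM. The aromatic amino acid carrier Slc16a10, named after its values were seen, was at 1.05 ± 0.04 TPM in unstimulated CD18Foxp3 and 3.01 ± 0.32 TPM in unstimulated CD18wt Treg (-1.54 ± 0.23, adjusted p = 0.014), just outside the threshold and past it with an adjusted p of 0.05 as the limit.

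Inside the cell, 4 of 8 mitochondrial amino acid carriers tested rose in each genotype, against 18.7% and 20.9% of all genes. The largest log2 fold changes in CD18wt Treg were those of Slc25a13, which exchanges aspartate for glutamate (2.05), Slc25a15, which carries ornithine (1.56), and Sfxn1, which carries serine (1.39). None of the 8 fell in CD18wt Treg, and Slc25a29, named after its values were seen, fell in CD18Foxp3 Treg (-1.40 ± 0.27). Of 6 lysosomal carriers tested 1, Slc36a4, rose in each genotype (0.61 ± 0.16 and 0.92 ± 0.12), near the 18.7% and 20.9% of all genes that rose. In CD18wt Treg this call was lost with upper-quartile scaling (0.53) and without unstimulated replicate 1 or 3 or any of the stimulated replicates (0.53 to 0.63). In CD18Foxp3 Treg it was kept in every setting and without any single library. Slc38a9, an arginine sensor upstream of mTORC1, was at 1.67 to 3.51 TPM in the 12 libraries and did not pass (-0.09 ± 0.20 and 0.32 ± 0.20). Among 23 genes of amino acid sensing by mTORC1, 3 rose and 5 fell in each genotype, near the shares of all genes (18.7% and 14.9% in CD18wt, 20.9% and 17.6% in CD18Foxp3 Treg). In CD18wt Treg those that rose were Sesn2, a leucine sensor (1.76 ± 0.18), Rragd, a GTPase that recruits mTORC1 (1.36 ± 0.16), and Mlst8 (0.86 ± 0.20), and the largest falls were those of the arginine sensor Castor1 (-1.53 ± 0.26), Lamtor4 (-1.09 ± 0.19) and Sesn1 (-1.04 ± 0.19). In CD18Foxp3 Treg Sesn2 (1.86 ± 0.19) and Rragd (1.55 ± 0.14) rose and Castor1 (-1.71 ± 0.18) and Sesn1 (-0.63 ± 0.14) fell as well. That split turned to 7 rising and 3 falling in CD18wt and 10 and 1 in CD18Foxp3 Treg with limma on log2(TPM + 1). The same fit called 3589 of all 11930 genes higher and 858 lower in CD18wt Treg. In CD18Foxp3 Treg it called 3783 of 12019 higher and 1201 lower.

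Of 12 genes of the amino acid response tested, 8 rose in each genotype, against 18.7% and 20.9% of all genes. Those that fell were 3 in CD18wt and 2 in CD18Foxp3 Treg, not far from the 14.9% and 17.6% of all genes. The genes of this list that rose include Atf4 itself, from 102 to 168 TPM to 266 to 366 TPM in CD18wt and from 142 to 155 TPM to 315 to 346 TPM in CD18Foxp3 Treg (log2 fold change 0.75 ± 0.16 and 0.77 ± 0.10, SE). They also include Asns, which makes asparagine (3.97 ± 0.29 and 4.10 ± 0.26), Shmt2, which takes 1-carbon units from serine (2.25 ± 0.16 and 2.02 ± 0.15), and Psat1 of serine synthesis (1.80 ± 0.18 and 2.12 ± 0.14). The genes that fell in CD18wt Treg were Cebpb, Ddit4 and Ddit3, which the list holds as stress targets. Myc, which drives growth of activated T cells, went from 47.6 to 115 TPM to 284 to 485 TPM in CD18wt and from 69.7 to 85.3 TPM to 295 to 381 TPM in CD18Foxp3 Treg (1.87 ± 0.31 and 1.78 ± 0.14). Between the genotypes 0 genes of these 5 lists were called in either culture by edgeR, against 0.135% and 0% of all genes. DESeq2 called 1, Slc16a10, lower in unstimulated CD18Foxp3 Treg. It called 86 of all 11829 genes in unstimulated and 22 of 11930 in stimulated Treg. With so few genes called, these counts say little about the lists. At an unadjusted p under 0.05 (edgeR) were 8 in unstimulated and 0 in stimulated Treg, against 9.59% and 4.89% of all genes. The 8 were 4 of 23 genes of amino acid sensing tested and 2 of 7 further plasma membrane carriers. The others were 1 of 6 lysosomal and 1 of 8 mitochondrial carriers, with 0 of 12 genes of the amino acid response.

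As a description of shared pattern, the genes most like each transporter were sought by Pearson correlation of log2(TPM + 1) over the 12 libraries among 7753 genes with a mean of at least 10 TPM. The 12 points share 2 cultures that differ throughout, so that any gene with a strong response correlates well. The closest gene was Tfrc, the transferrin receptor, for Slc7a1 (r = 0.999), Ccdc86 for Slc7a5 (0.998), followed by Iars, the isoleucyl-tRNA synthetase, and Srm, the spermidine synthase (0.998 each), Nup85 for Slc7a6 (0.996), Ddi2 for Slc3a2 (0.994) and Ampd2 for Slc1a5 (0.994). Slc38a1 and Slc6a6 were each among the 3 closest genes of the other (0.996), and both had Gnl3l first (0.997 and 0.998). For Slc38a2 (Crk, 0.986), Slc1a4 (Pou2f2, 0.915) and Slc43a1 (Pdcd2l, 0.899) the closest genes were less close.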

How the data were processed

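RNA-Seq libraries were made from poly(A) RNA of sorted splenic Treg with 15 PCR cycles and a kit that does not mark strand, and read as single reads of 59 bases. The submitters' processing notes name the build GRCm38. The authors mapped and counted reads per gene in CLC Genomics Workbench and deposited, for each of 41457 genes and each library, counts of exon and intron reads without normalization, together with TPM and RPKM, which are written with decimal commas. Library totals were 10665174 to 19005482 exon reads. Samples were grouped by the labels' genotype and treatment, and p-values measure the spread between these libraries.

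Exon counts, and separately intron counts, were tested in edgeR 4.0.16 (R 4.3.3; filterByExpr with a minimum count of 10, TMM, robust quasi-likelihood F-test, Benjamini-Hochberg adjustment over all genes tested). Each comparison was fitted on its own 6 libraries, and the interaction on all 12. Genes were called where the fold change reached 1.5 and the adjusted p did not exceed 0.01. The SE is the log2 fold change divided by the square root of F. TPM and their ratios were compared by exact two-sided permutation tests of 3 against 3 libraries, whose smallest p is 0.1. Alternatives included DESeq2 1.42.0 and limma 3.58.1. The procedure was tested on simulated data. Tables and figures were made with Python 3.11.15.

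The 10 transporters and the other gene lists were chosen with earlier results of these data known. Named besides the 10 were, for each other list, up to 3 of the largest rises and falls in CD18wt Treg, with Slc7a11, Slc43a2, Slc7a7, Slc7a8, Slc38a9, Myc, Atf4 and Itgb2. For likeness, the 3 genes with the highest Pearson correlation to each transporter were listed. Promoter sequences are those of RefSeq. Gatsl3 and Gatsl2 are listed as Castor1 and Castor2, and Ddit3 carries a suffix in the tables. A further B cell marker, and the sum over the B cell markers, are not reported here.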

Additional observations from a re-analysis of the deposited data

How the results depend on the processing

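The settings were DESeq2, upper-quartile scaling, library totals, no filter, at least 10 reads in every library, uniquely placed reads, limma on log2(TPM + 1) and on log2(TPM + 0.1), a replicate block, a joint fit of 12 libraries, a threshold of 0.05 for the adjusted p, and the removal of single libraries. The number of transporters called higher upon stimulation was 7 to 8 in CD18wt and 7 to 9 in CD18Foxp3 Treg over the settings. It was 6 to 7 in each without a library, and 0 were called lower, or by genotype or interaction, in any of them. The 8 came with library totals and both limma fits, where 2849, 3589 and 3550 of all 11930 genes were called higher, in place of 2234. The 9 came with both limma fits, where 3783 and 3817 of all 12019 genes were, in place of 2516. Calls over all genes by genotype were few and moved. In unstimulated Treg they went from 16 to 86 with DESeq2, 134 without a filter, 1 and 5 with limma on log2(TPM + 1) and log2(TPM + 0.1), 41 with the replicate block, 0 with all 12 libraries, 33 at an adjusted p of 0.05, and 0 to 44 without a library. In stimulated Treg they went from 0 to 22 with DESeq2, 61 without a filter, 1 with limma on log2(TPM + 0.1), 1 with the replicate block, and 0 to 2 without a library. The interaction gave 0, and 1 with DESeq2, 31 without a filter and 1 with either limma fit. With RPKM in place of TPM, 3 transporters and not 1 had genotypes without overlap in unstimulated Treg, as had 16.6% of all genes tested.

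Calls by intron reads of CD18wt Treg also moved. Genes called went from 740 to 188 with the replicate block, 196 with exon library sizes and 159 to 1060 without a library. Transporters called higher went from 2 to 1 with the replicate block, 1 with exon library sizes and 1 to 3 without a library. Those called lower went from 2 to 0 with upper-quartile scaling, library totals, the replicate block or exon library sizes and 0 to 3 without a library. In CD18Foxp3 Treg 5 transporters in place of 3 were called higher by intron reads with library totals and with exon library sizes. Of all 10260 genes, 2637 and 2365 were called higher in these settings, in place of 1539. The causes were not tested.

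Signs turned for values near 0. Upon stimulation of CD18wt Treg, Slc43a1 (-0.03) went to 0.15 with library totals, 0.28 and 0.38 with limma on log2(TPM + 1) and log2(TPM + 0.1), and -0.23 to 0.29 without a library. By genotype in unstimulated Treg, Slc7a1 (-0.02) went to 0.00058 with library totals, 0.0099 and 0.011 with the limma fits and -0.092 to 0.080 without a library, and Slc38a2 (-0.05) to 0.0085 and 0.0097 with the limma fits and -0.22 to 0.18. In stimulated Treg Slc7a1 (0.00) went to -0.00557 and -0.00562 with the limma fits, -0.0012 with all 12 libraries and -0.045 to 0.048 without a library, Slc43a1 (0.03) to -0.15 to 0.20 and Slc7a6 (-0.04) to -0.13 to 0.065. For the interaction Slc7a1 (0.02) went to -0.015 and -0.016 with the limma fits and -0.077 to 0.089 without a library, Slc7a5 (-0.05) to -0.18 to 0.085, Slc1a4 (-0.05) to -0.34 to 0.43 and Slc38a2 (-0.08) to -0.30 to 0.091. Intron reads of Slc7a1 in CD18wt Treg (0.06) went to -0.15 to 0.25.

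Replicate numbers are shared by the groups, and the labels do not say that they pair the samples, but the names of the deposited tables carry a further number that the unstimulated and the stimulated library of 1 replicate share, which may mark an animal. Correlations of same-numbered deviations between cultures were 0.096, -0.019 and -0.095 in CD18wt and 0.135, 0.070 and 0.147 in CD18Foxp3 Treg, where every library correlated best with its own number, which was not so in CD18wt Treg. With the replicate block 3588 genes in place of 4013 were called for stimulation in CD18wt Treg and 4899 in place of 4636 in CD18Foxp3 Treg, and no count of transporters called by exon reads changed. By intron reads the block lost Slc38a1, Slc38a2 and Slc7a5 in CD18wt Treg. With 3 libraries a group, the exact permutation test cannot go below 0.1. Slc1a4 held 26 to 198 and Slc43a1 45 to 142 exon reads per library, so that differences in them were hard to detect at this depth.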
